A study of Mus musculus with 2 samples.

Results

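The effector cytokines and chemokines of CD8+ T cells examined here are 9 genes chosen by name, out of 27998 genes listed for each library. They are the chemokines Ccl5, Ccl3, Ccl4 and Xcl1, the interleukins and interferon Il2 and Ifng, and the tumour necrosis factor (TNF) family ligands Tnf, Lta and Ltb. All 9 had a unique molecular identifier (UMI), the tag that marks 1 captured transcript, in both libraries.

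The cells came from spleens and lymph nodes of OT-I mice 8 to 12 weeks old, whose CD8+ T cells carry a transgenic receptor for the ovalbumin peptide SIINFEKL. In both groups they were cultured for 48 h with that peptide and 100 U/ml interleukin-2, and then held for 20 h in either 11 mM glucose (control) or 1 mM glucose (transient glucose restriction, TGR). The sample descriptions give the time in culture before the exposure as 3 days, and whether glucose was restored before capture is not given in the sources used here. Each condition was captured once by 10x Chromium (v2 chemistry). The number of mice behind each library is not given either, every cell carried the same receptor and had been given interleukin-2, and no cells rested without peptide or freshly restimulated were measured.

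An activated CD8+ T cell secretes most of these proteins when its receptor is engaged, while lymphotoxin beta is held in a membrane complex. Chemokines draw other leukocytes to the site, interferon gamma and TNF act on infected or tumour cells and on macrophages, and interleukin-2 feeds the growth of the T cells themselves. Much of this output is switched on at the gene within hours and is also set by how long each messenger RNA lasts. Several of these RNAs carry AU-rich elements bound by stability regulators, and low glucose is known to limit interferon gamma translation in activated T cells, which transcript counts do not report.

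After barcodes with under 500 genes or at least 10% mitochondrial UMIs were left out, 3127 control cells with 14730128 UMIs and 2546 TGR cells with 19696068 UMIs remained. TGR cells were deeper, with a median of 6266 UMIs against 4030, and ribosomal protein genes took 50.3% of their UMIs against 40.5%. The cells carried the T cell markers the label implies, with Cd3d in 89.5% of control and 97.7% of TGR cells and Cd8a in 71.2% and 75.1%. The natural killer-type markers summed to 13.7 and 7.57 CPM (UMIs per 1000000 of the library's UMIs), the B cell markers to 19.7 and 12.8 and the myeloid markers to 116 and 61.9. Most of the B cell sum was Cd79b and most of the myeloid sum was Cst3, while Pax5, Adgre1, S100a8, S100a9, C1qa and Siglech were at 0 in both libraries. Cells with at least 2 markers of the natural killer-type, B cell or myeloid list numbered 28 in control and 13 in TGR. Cst3 and Lyz2 counted there only with 2 UMIs or more. CD4 T cell markers were not part of this count, and the gamma delta T cell markers sought were not among the genes listed. In addition, 9 barcodes were present in both libraries. No large group of cells that should lack these genes was captured, so the part of free RNA in their detection was not tested. With 1 library per condition no p-value is given. Intervals are 95% exact ones for counting error, and every difference describes 2 libraries, not a replicated effect.

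Promoter sequences are shown for Xcl1 and Ccl3, whose RNA was higher in TGR, and for Tnf, whose RNA was lower. The windows are 200 bases of RefSeq promoters (GRCm38.p6), from base 220 to base 21 upstream of the start, written 5′ to 3′ along the gene. They lie at chr1:164935543-164935742 for Xcl1, chr11:83649399-83649598 for Ccl3 and chr17:35202028-35202227 for Tnf, all on the minus strand. Capitals mark the GGAAA core bound by NFAT, a factor switched on by receptor-driven calcium, on either strand (read as TTTCC when on the other), and the TATAAA box on the strand shown.
Xcl1: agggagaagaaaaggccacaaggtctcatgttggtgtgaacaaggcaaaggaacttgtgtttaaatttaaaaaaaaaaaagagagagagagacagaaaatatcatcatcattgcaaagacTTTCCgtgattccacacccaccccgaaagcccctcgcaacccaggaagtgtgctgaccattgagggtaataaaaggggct
Ccl3: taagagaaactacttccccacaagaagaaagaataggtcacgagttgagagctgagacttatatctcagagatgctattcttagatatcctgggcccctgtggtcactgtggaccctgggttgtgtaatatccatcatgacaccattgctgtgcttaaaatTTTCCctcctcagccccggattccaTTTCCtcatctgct
Tnf: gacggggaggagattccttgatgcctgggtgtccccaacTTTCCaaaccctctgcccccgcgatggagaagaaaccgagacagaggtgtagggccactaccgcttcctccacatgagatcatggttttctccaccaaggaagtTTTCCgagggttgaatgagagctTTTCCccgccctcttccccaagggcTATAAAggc
The core occurred 1 time in the Xcl1 window, 2 times in that of Ccl3 and 3 times in that of Tnf. It was found in all 7 members for which a promoter was held, but also in 47.7% of 32851 promoters of the same length. The TATAAA box was present in 4 of the 7 (Ifng, Tnf, Lta and Il2) and in 6.38% of all promoters. The AP-1 motif TGANTCA, searched on both strands, was in 0 of the 7 and in 5.55% of all, and an NF-kB motif was in 1 of the 7 (Ltb) and in 5.94% of all. The Xcl1 and Ccl3 windows, from genes that were higher, and the Tnf window, from a gene that was lower, thus share the GGAAA core. Of the windows shown, only that of Tnf held the exact letters TATAAA, and near matches were not counted. The Ccl3 window ends at base 83649399, upstream of the GENCODE start of that gene at 83649355. Bases between these positions were not searched, so this window cannot show whether the Ccl3 promoter lacks the box. A match in these letters is a description of the sequence and not evidence of binding.

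The 4 chemokines and Ifng had higher levels in the TGR library, Tnf had a lower one, and Lta, Il2 and Ltb were called neither way. A gene was called at 1.5-fold with an interval that left out a ratio of 1, and it was scored when it reached 10 CPM in either library. Of the 5 scored members, 2 were higher (Ccl5 and Xcl1) and 1 was lower (Tnf). Among all 6667 scored genes, 9.33% were called higher and 21.8% lower. Of the 4 members under 10 CPM, 3 were higher (Ccl3, Ccl4 and Ifng), where 21.3% of the 4358 genes in that range with at least 20 UMIs were called higher and 8.17% lower. Calls among such sparse genes are therefore common in these libraries. The median log2 ratio was 0.18 over the 5 scored members and -0.16 over all scored genes.

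**Figure D1:**
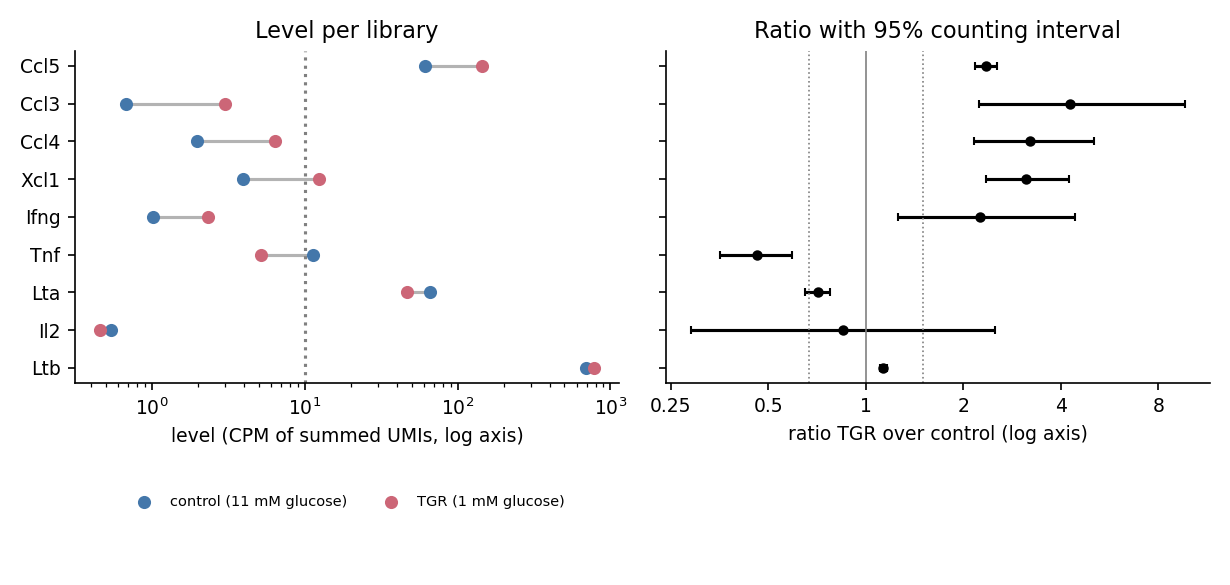
Left, level of each gene in CPM of summed UMIs (log axis) in the control and TGR libraries, with a dotted line at the 10 CPM limit; right, ratio of TGR over control (log axis) with its 95% counting interval and dotted lines at 1.5-fold. The 4 chemokines and Ifng lie to the right of 1, Tnf at 0.461 lies to the left of the 1.5-fold line, and the wide interval of Il2 rests on 8 and 9 UMIs.

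Ccl5 (chr11:83525778-83530518, minus strand, GRCm38), the chemokine RANTES, which memory and effector T cells make, gave 907 UMIs in the control and 2848 in the TGR library. Its level was 61.6 CPM against 145 CPM, a ratio of 2.35 (interval 2.18 to 2.53). Because TGR cells were deeper, each cell was also thinned at random to 1500 UMIs, which left 3036 control and 2546 TGR cells. A Ccl5 UMI was then found in 5.99% of control cells (5.18 to 6.90) and 11.5% of TGR cells (10.3 to 12.9), and in 13.3% and 34.1% without thinning. More TGR cells therefore showed Ccl5 at the same depth, and the 2 intervals did not overlap. The mean number of UMIs per positive cell at that depth was 1.66 and 1.80, and over all possible thinnings 1.71 in control and 1.66 in TGR cells. Without thinning it was 2.19 and 3.28. Because the share with a UMI also rises with the amount per cell, more cells with Ccl5 and more Ccl5 per cell cannot be told apart from these values.

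Ccl5 was unevenly spread over cells in both libraries. Of the control cells with a UMI before thinning, 282 of 415 held a single one, and of the TGR cells 408 of 869. At the other end, 13 control cells held at least 10 UMIs each, with 28.1% of all Ccl5 UMIs, and 45 TGR cells did, with 36.1%. The highest cell held 45 UMIs in control and 152 in TGR. After thinning, the mean per positive cell was 1.61 times in control and 1.70 times in TGR what a Poisson count with the same detected share would give, against a median of 1.00 over scored genes. Only 4 of 6665 scored genes had a larger excess in control (Ifitm1, Actb, Nupr1 and mt-Atp6) and 6 of 6633 in TGR (Hspa1a, mt-Co1, Actb, Mt2, Mt1 and Malat1). Of these few cells with much Ccl5, all 13 and all 45 held a UMI of a Cd3 or Cd8 gene, while Cd8a itself was met in 6 of the 13 and 34 of the 45. The 45 TGR cells had a median of 9992 UMIs against 6213 in the rest, and the part of doublets was not tested. At least 2 natural killer-type markers were met in 0 of the 13 and 3 of the 45. Over all kept cells they were met in 17 of 3127 in control and 7 of 2546 in TGR, with 21 and 84 Ccl5 UMIs. Thus 3 of those 7 TGR cells lay among the 45. Cells with a single such marker were not counted. Cells with at least 2 markers of the natural killer-type, B cell or myeloid list held 2.65% of the Ccl5 UMIs in control and 3.30% in TGR. Without the 10 cells richest in Ccl5 in each library, the log2 ratio was 1.33 in place of 1.23.

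**Figure D2:**
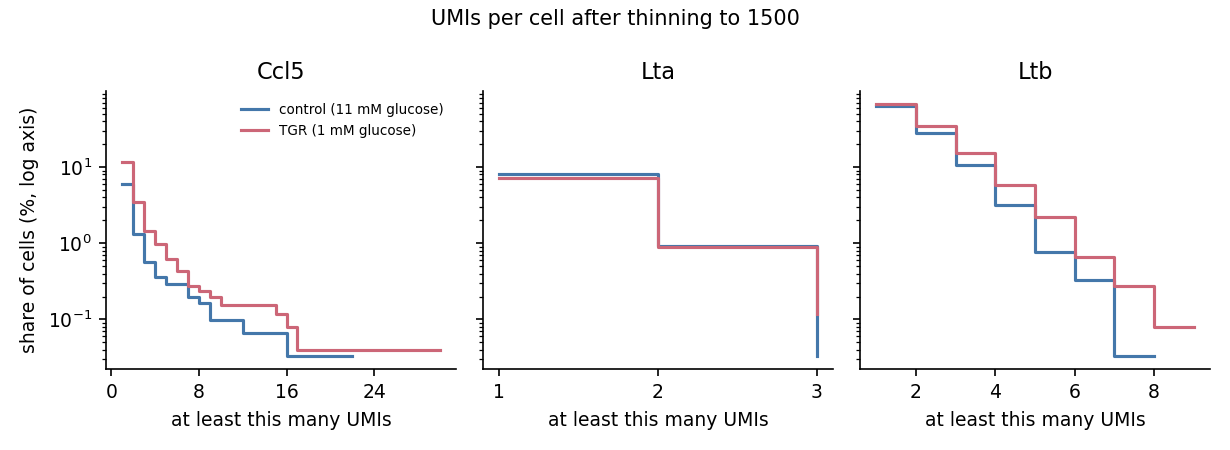
Share of cells (log axis) with at least the number of UMIs on the horizontal axis, after thinning each cell to 1500 UMIs, for Ccl5, Lta and Ltb in the control and TGR libraries. Ccl5 has a long right tail in both libraries, reaching 22 UMIs in control and 30 in TGR, while Lta stops at 3 UMIs in both and Ltb at 8 and 9.

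Ccl3 (chr11:83647844-83649355, minus strand) and Ccl4 (chr11:83662584-83664683, plus strand) encode the inflammatory chemokines MIP-1 alpha and MIP-1 beta, and the pair lies within 16.8 kb. Ccl3 gave 10 UMIs in control and 59 in TGR, or 0.679 and 3.00 CPM, a ratio of 4.27 (2.24 to 9.68). Ccl4 gave 29 and 126 UMIs, or 1.97 and 6.40 CPM, a ratio of 3.22 (2.16 to 5.05). Both genes were thus sparse in both libraries and sparser in control. At 1500 UMIs per cell, Ccl3 was met in 0.165% and 0.432% of cells and Ccl4 in 0.329% and 0.903%, with overlapping intervals for each. On the thinned UMIs Ccl3 was not called, with a log2 ratio of 1.30 in place of 2.10. Single cells carried part of the TGR signal, since 1 cell held 10 of the 59 Ccl3 UMIs and 1 cell held 14 of the 126 Ccl4 UMIs. The 2 genes are close paralogs, so reads could be split between them and each count is uncertain to that extent.

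Xcl1 (chr1:164931644-164935527, minus strand), or lymphotactin, draws the dendritic cells that bear XCR1. It gave 58 UMIs in control and 243 in TGR, or 3.94 and 12.3 CPM, a ratio of 3.12 (2.34 to 4.25). At equal depth it was found in 0.593% of control cells (0.352 to 0.935) and 2.003% of TGR cells (1.495 to 2.63), and the intervals did not overlap. Positive cells held 1.18 and 1.25 UMIs on average without thinning, with at most 4 and 8. With about 1 UMI per positive cell, more cells with Xcl1 and more Xcl1 per cell cannot be told apart. The annotated gene Gm20743 overlaps Xcl1 on the opposite strand.

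Ifng (chr10:118441046-118445892, plus strand), the cytokine that arms macrophages and raises antigen presentation, was sparse in both libraries. It gave 15 UMIs in control and 46 in TGR, or 1.02 and 2.34 CPM, a ratio of 2.26 (1.26 to 4.42). All 15 control UMIs were in different cells, while the 46 in TGR lay in 39 cells with a maximum of 5. At 1500 UMIs per cell Ifng was met in 0.0988% of control and 0.432% of TGR cells, with overlapping intervals. On the thinned UMIs of that draw, 3 and 12, it was still called higher, at a log2 ratio of 2.07. At 3000 UMIs per cell the shares were 0.404% and 0.409%. The annotated gene Gm49751 overlaps Ifng on the same strand, and whether this affected the Ifng count was not tested. Il2 (chr3:37120523-37125959, minus strand), the T cell growth factor that was also supplied in the medium, gave 8 and 9 UMIs. Its ratio of 0.849 has an interval from 0.288 to 2.51, so no difference of either sign was detectable at this depth. Adad1 overlaps Il2 on the opposite strand.

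Tnf, Lta and Ltb encode TNF, lymphotoxin alpha and lymphotoxin beta, and sit within 10.9 kb of chromosome 17. TNF and lymphotoxin alpha both signal through the TNF receptors, and lymphotoxin beta joins lymphotoxin alpha in a membrane complex that engages its own receptor and organises lymphoid tissue. Tnf (chr17:35199381-35202007, minus strand) was the sole member called lower in TGR. It gave 166 UMIs in control and 102 in TGR, or 11.3 and 5.18 CPM, a fold of 2.17 lower (1.69 to 2.81). The share of positive cells at 1500 UMIs was 1.38% and 0.982% in the draw used, with overlapping intervals, and 1.58% and 0.776% on average over all possible thinnings. Its log2 ratio was -1.12 on all UMIs and -0.49 on the thinned UMIs of that draw, which is not called, while the mean over all thinnings was 2.04-fold lower. Nearly every positive cell held 1 Tnf UMI, the mean being 1.06 and 1.09.

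Lta (chr17:35203165-35205351, minus strand) gave 972 UMIs in control and 922 in TGR. Its level was 66.0 against 46.8 CPM, or 1.41-fold lower (1.29 to 1.54), which lies within the 1.5-fold limit. With the barcodes removed for their mitochondrial share put back, it passed the limit, at a log2 ratio of -0.59 in place of -0.50. A count of cells alone would turn the direction, since 21.7% of control and 25.6% of TGR cells held an Lta UMI without thinning, but 8.07% and 7.23% at equal depth. Ltb (chr17:35194439-35196320, plus strand) gave 10173 and 15385 UMIs, or 691 and 781 CPM, a ratio of 1.13 (1.10 to 1.16). At equal depth 63.3% of control cells (61.6 to 65.1) and 68.1% of TGR cells (66.3 to 69.95) held it, with 1.68 and 1.87 UMIs per positive cell. The 3 neighbouring ligands therefore did not move together, as Tnf was lower, Lta was lower within the 1.5-fold limit and Ltb was slightly higher.

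Over the 9 genes, the detected share at equal depth was higher in TGR with separate intervals for 3 (Ccl5, Xcl1 and Ltb) and lower for 0. Among scored genes, 10.5% were higher and 27.1% lower in this sense, and among the genes under 10 CPM 3.1% and 1.28%. The mean over all possible thinnings gave the same order of libraries as the single draw for 8 of the 9 genes. The exception was Il2, at 0.0747% in control and 0.104% in TGR cells.

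**Figure D3:**
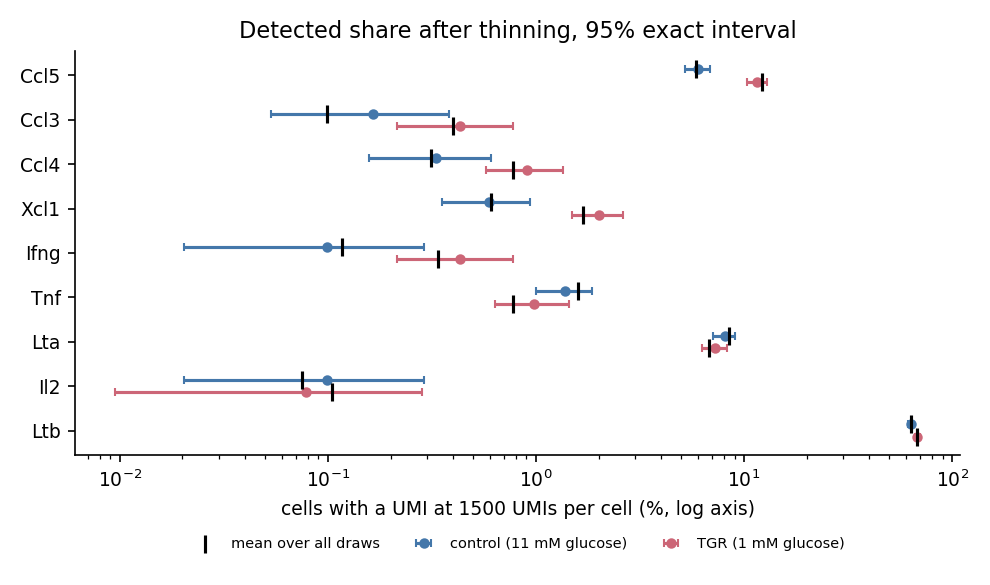
Share of cells with a UMI after thinning to 1500 UMIs per cell (log axis), by gene and library, with 95% exact intervals for the draw used and black ticks for the mean over all possible draws. The control and TGR intervals are apart for Ccl5, Xcl1 and Ltb and overlap for the other 6 genes, and the ticks of Tnf at 1.58% and 0.776% are farther apart than its points.

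The libraries differed in cell cycle calls, so levels were compared within called phases. Of the thinned cells, 9.0% of control and 54.0% of TGR cells were called G1, 20.7% and 18.3% S, and 70.4% and 27.7% G2/M. Within G1 cells, 273 in control and 1375 in TGR, 0 of the 5 scored members were called either way, against 7.08% of scored genes called higher and 18.3% lower. Within S cells, 2 were higher and 1 lower (background 11.6% and 20.3%), and within G2/M cells 2 were higher and 2 lower (11.2% and 22.1%). Whether the ratios differ between phases was not tested, and the part of the phase shares in the pooled ratios was not tested.

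For Ccl5 the control level stood higher in G1 cells, at 134 CPM against 46.2 in S and 58.5 in G2/M. That value rests on 135 UMIs in 273 cells, 3 of them with at least 10, and the equal-depth shares of 9.16% in G1 (6.01 to 13.2) and 5.52% in G2/M (4.59 to 6.58) overlap. TGR cells held 155, 105 and 153 CPM in the same phases. The ratio was accordingly 1.16 in G1 (0.970 to 1.39), 2.28 in S and 2.61 in G2/M (2.36 to 2.89). Xcl1 had ratios of 1.71 in G1 (0.764 to 4.82, from 6 control UMIs), 4.19 in S and 4.03 in G2/M (2.88 to 5.83). Lta went from 55.7 and 59.7 CPM in G1 to 66.6 and 30.0 CPM in G2/M, where it was called lower with a ratio of 0.451 (0.383 to 0.528). In those G2/M cells Lta was found in 8.38% of control cells (7.24 to 9.64) and 5.26% of TGR cells (3.73 to 7.17) at equal depth, and the intervals did not overlap. Tnf was below 1 in each phase, with ratios of 0.568 (0.272 to 1.31) in G1, 0.246 in S and 0.608 in G2/M. At equal depth Tnf was found in 1.22% of control G2/M cells (0.797 to 1.78) and 1.42% of TGR ones (0.683 to 2.60), with overlapping intervals. Ltb stayed within 1.03 to 1.07 in all 3 phases.

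**Figure D4:**
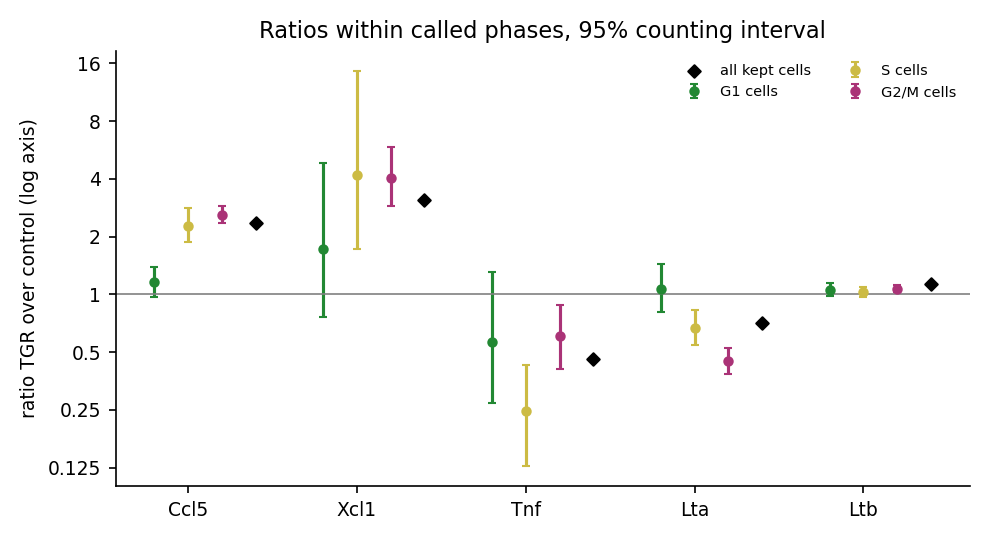
Ratio of TGR over control (log axis) for Ccl5, Xcl1, Tnf, Lta and Ltb within cells called G1, S and G2/M, with 95% counting intervals, and over all kept cells (diamonds). Ccl5 is near 1 in G1 cells and 2.61 in G2/M cells, Lta falls from 1.07 in G1 to 0.451 in G2/M, and Ltb is near 1 throughout.

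Cells were also split by their UMIs, under 4000, from 4000 to 7000 and over 7000. Of the scored members, 1 was called higher and 1 lower in the first band (background 9.19% and 19.3%), 2 and 1 in the second (10.7% and 24.8%) and 2 and 2 in the third (11.3% and 23.7%). Ccl5 was higher in TGR in each band, with ratios of 1.59, 1.98 and 3.43. Tnf was lower in each, at 0.392, 0.477 and 0.482, although in the deepest band its share at equal depth was 0.571% in control (0.118 to 1.66) and 1.43% in TGR (0.802 to 2.35). Xcl1 had 1.23 in the lowest band, from 18 and 7 UMIs, and 3.17 and 3.29 above it. Lta had 0.8002, 0.836 and 0.620, so that it was called lower only in the deepest cells of these 3 bands. Ltb had 1.26, 1.30 and 1.15.

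Averaged over all possible thinnings, each pair of chemokines was met together in TGR cells more often than the product of their shares. The ratios to that product ran from 1.14 to 7.81, some of them on few cells. Without thinning, 104 of the 194 Xcl1-positive TGR cells also held Ccl5, or 53.6% (46.3 to 60.8), against 34.1% of all TGR cells. Of the 85 Ccl4-positive cells 47 held Ccl5, or 55.3%, and of the 50 Ccl3-positive cells 25 did. Xcl1 was in 4 of the 50 Ccl3-positive cells, 8%, and in 7.62% of all. Positive cells were deeper, with a median of 8337 UMIs for those with Xcl1 and 6085 for those without, which raises such shares. At equal depth Ccl5 was in 12 of 51 Xcl1-positive cells, 23.5% (12.8 to 37.5), and in 11.3% of Xcl1-negative ones (10.1 to 12.6). Averaged over all possible thinnings, cells with both were 1.47 times as common in TGR as the product of the 2 shares for Ccl5 and Xcl1, 1.62 times for Ccl5 and Ccl4, and 1.14 times for Ccl5 and Ccl3. The TGR value was 1.55 for Ccl3 and Xcl1, from 4 cells with both before thinning, and 1.71 for Ccl4 and Xcl1, from 10. In control the Ccl5 and Xcl1 value was 1.505, from 8 cells with both before thinning, and that of Ccl5 and Ccl4 was 0.499, from 2. Control values were also above the product for Ccl5 and Ccl3, at 4.93 from 3 cells. They were 2.68 for Ccl3 and Xcl1 and 8.83 for Ccl4 and Xcl1, from 1 cell each, while Ccl3 and Ccl4 met in 0 control cells. Values above the product were thus not confined to TGR cells.

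Ccl3 and Ccl4, the neighbouring pair, met in 8 of the 50 Ccl3-positive TGR cells, 16% (7.17 to 29.1), where 3.34% of all TGR cells held Ccl4. In control 0 of the 10 Ccl3-positive cells held Ccl4, where the product of the shares gives 0.086 cells. In the equal-depth draw 0 of 11 TGR ones did, where that product gives 0.099. Counts of 0 at such low values cannot show whether the 2 genes meet. Averaged over all possible thinnings, TGR cells with both were 7.81 times as common as the product, from 8 cells with both before thinning. Tnf and Lta met in 40 of the 94 Tnf-positive TGR cells, 42.6% (32.4 to 53.2), against 25.6% of all, and in 38 of 156 control cells, 24.4% (17.9 to 31.9), against 21.7%. Averaged over thinnings, that pair was 1.76 times the product of its shares in TGR and 0.745 times in control, while in the single draw 1 of 25 Tnf-positive TGR cells held Lta, against 7.26% of the others. Ccl5 and Lta were close to independent in both libraries, at 1.02 and 0.944. The single thinning gave fewer TGR cells with both, as 15 of 294 Ccl5-positive cells held Lta (5.10%) against 7.50% of the others, and so differed from the mean over draws.

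How many of the genes a cell showed depended on the depth. At equal depth at least 2 of the 9 genes were found in 11.1% of control cells (9.97 to 12.2) and 15.4% of TGR cells (14.0 to 16.8). Without Ltb, which most cells held, this fell to 27 control cells or 0.889% (0.587 to 1.29) and 48 TGR cells or 1.89% (1.39 to 2.49). At least 3 of those 8 genes were met in 0 of 3036 control cells and 4 of 2546 TGR cells. Without thinning the shares with 2 or more of the 8 were 6.43% and 19.2%, and with 2 or more of the 9 they were 34.4% and 54.4%.

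Genes of the companion lists were compared between positive and negative cells at equal depth, for the members with at least 50 positive cells. The 602 such ratios covered 86 genes for each member and library. Xcl1 reached 50 positive cells only in TGR, so its ratios could not agree in both libraries. An interval that left out 1 was met in 56 of the 602, with no adjustment for their number. In 4 cases the intervals left out 1 in the same direction in both libraries. Of these, 3 belonged to Lta. Lta-positive cells held more Gzmb, the granule protease granzyme B, at 1.32 times the negative cells in control (1.18 to 1.47) and 1.41 times in TGR (1.21 to 1.63). They held more Il2ra, a receptor subunit for interleukin-2, at 1.485 and 1.501 times, and more Mif, a secreted inflammatory mediator, at 1.10 times in both. On the activation list, Il2ra was the 1 gene whose interval left out 1 in both libraries. The other was Srgn, which encodes the granule proteoglycan serglycin, at 1.21 and 1.29 times in Ltb-positive cells. Ccl5-positive TGR cells held 1.42 times the Il2ra and 1.45 times the Nfkbia of negative cells, and control Ccl5-positive cells held 1.46 times the Il2rg. These 3 ratios were not among the 4 with the same direction in both libraries. No gene reached a correlation of 0.1 across cells with Ccl5, Tnf, Lta or Ltb in both libraries, among 8134 genes compared. The highest, taking the lower of the 2 libraries, was 0.083 for Ltb with H2-D1, an antigen presentation gene, and cells share library and depth.

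Genes that act with these ligands were summarised by list with the same call. Each count is to be read against the 9.33% of all scored genes called higher and the 21.8% called lower, or 19.5% and 11.7% when ribosomal and mitochondrial genes were left out of the totals. Of the 6 scored receptor chains for the cytokines, 0 were called higher and 0 lower, with a median log2 ratio of 0.10. Among them Il2ra had 189 CPM in control and 129 in TGR, Il2rb 156 and 111, and Il2rg 130 and 180. These receptor transcripts thus stayed within the call limit.

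Of the 6 other secreted cytokines that were scored, 0 were higher and 1 was lower, and the median was -0.40. The lower one was Lif, a cytokine of the interleukin-6 family, at 12.5 and 4.72 CPM. Mif had 2000 and 1576 CPM, Tgfb1 174 and 127, and Il16, a CD4 ligand, 45.4 and 66.6. Cxcl10, an interferon-induced chemokine, was below the scoring limit with 14 UMIs in control and 118 in TGR, and was singled out after its value was seen. The 1 scored ligand among the other TNF superfamily genes, Tnfsf8, had 45.3 and 62.7 CPM and was not called.

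Among 23 scored transcription factors of cytokine genes, 4 were called higher and 2 lower, where 9.33% and 21.8% of all scored genes were, and the median was -0.08. Relb, a subunit of the noncanonical NF-kB pathway, had 8.35 CPM in control and 33.0 in TGR (ratio 3.94), and Eomes, a T-box factor of Ifng and memory genes, had 18.5 and 4.77. The others called higher were Jun, Nfkb2 and Rel, and the other lower one was Nfatc2. Jund and Runx3 had 373 and 173 CPM in control and 308 and 167 in TGR, within the limit. Among 9 scored regulators of cytokine RNA stability, 2 were higher and 2 lower. Zfp36l2, which binds AU-rich elements and promotes decay, had 45.1 and 78.5 CPM, and Zc3h12d, an RNase family member, 10.2 and 21.7. Hnrnpd and Elavl1, which also bind AU-rich RNA, had 88.9 and 39.2 CPM and 76.5 and 36.4 CPM. Proteins that bind such RNAs were thus found among the genes called in both directions.

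The cytotoxic granule genes had 7 scored, 0 higher and 2 lower, with a median of 0.01, and 2 of 7 lower is near the share over all scored genes (21.8%). Nkg7, a granule membrane protein, had 867 and 488 CPM, Gzmb 803 and 480, and Srgn 150 and 172. Of the 12 memory and naive genes scored, 5 were called higher (Il7r, Lef1, Klf2, S1pr1 and Bach2) and 1 lower (Id3), and the median was 0.34. S1pr1, the receptor for exit from lymphoid tissue, had 22.6 and 54.3 CPM, Id3 119 and 55.8, Ly6c2 258 and 177, Tcf7 166 and 198, and Cd27 143 and 182. Of 10 scored activation genes 6 were called higher and 1 lower, where 9.33% and 21.8% of all scored genes were, and the median was 0.72. Cd200, an inhibitory ligand, had 4.68 and 22.0 CPM, Tnfrsf9, which encodes 4-1BB, 36.3 and 92.7, and Tfrc, the transferrin receptor, 136 and 21.1.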

How the data were processed

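Members were matched by gene symbol, and the members and lists were chosen with earlier results of these data known. The authors deposited raw UMI counts per gene and barcode, without normalization. Per the submitters' processing notes, Cell Ranger 2.2, Seurat 3 and the mm10 build were used, with no role given, and libraries were sequenced on a HiSeq 3000, per the labels. Barcodes with at least 500 genes and under 10% mitochondrial UMIs were kept, and doublets were not called here. UMIs were summed per library, scaled to CPM, and compared as a ratio with 0.5 UMI added. Its 95% interval is the Clopper-Pearson interval of the split of UMIs, and PCR and capture error are not covered. Cells were thinned to 1500 UMIs, leaving out 91 control and 0 TGR cells, and phases were called with scanpy 1.11.5. All 9 members are named, with, from each list, the 3 genes of highest mean CPM and the 2 of largest absolute log2 ratio among those scored. Some genes that met this rule are not reported here. Genes named beyond that were chosen after their values were seen. Positions are from GENCODE by Ensembl identifier, and promoters, for 7 of the 9 members, from RefSeq. Alternatives used edgeR 4.0.16 and DESeq2 1.42.0 for scaling only, other filters, thinning depths, phases and depth bands. The scripts were tested on simulated counts. Python 3.11.15 and R 4.3.3 were used.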

Additional observations from a re-analysis of the deposited data

Results flagged for a closer look

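Members had UMIs among the barcodes left out for a mitochondrial share of at least 10%, which entered the values above only where they were put back. In control these were 209 barcodes with a median of 1545 UMIs and 849 genes. They held 790 Ltb UMIs, in 93.8% of the barcodes, or 2114 CPM where the kept control cells had 691. They held 91 Lta UMIs, or 244 CPM (196 to 299) where the kept cells had 66.0. Tnf gave 12 UMIs there, or 32.1 CPM (16.6 to 56.1) against 11.3, and Ccl5 gave 16 UMIs, or 42.8 CPM (24.5 to 69.5) against 61.6. The TNF family ligands were thus higher per UMI in the removed control barcodes than in the kept ones, while the Ccl5 interval included the kept level. The 2 TGR barcodes removed held 11 Ltb UMIs. What these barcodes are was not tested.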

How the results depend on the processing

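No paired analysis was possible because each condition has 1 library. Among 9 members, 5 were called higher with no CPM minimum, and 1 of 3 higher and 0 lower at 50 CPM or more. With all deposited barcodes 2 were lower, as Lta passed the limit, and with UMIs thinned to 1500 per cell 0 of 4 were lower. Tnf then fell under the 10 CPM limit, and its log2 ratio of -0.49 was not called in any case. Without thinning 7 members had a higher detected share. With thinning to 3000 UMIs, or another seed, 1 had a lower one (Tnf). Cells with 2 or more members were 34.4% in control and 54.4% in TGR without thinning, 24.7% and 31.8% at 3000 UMIs, and 0.889% and 1.89% without Ltb, an alternative chosen after seeing the data. Within subsets the counts higher and lower were 0 and 0 in G1 cells, with 2 lower in G2/M, 1 higher under 4000 UMIs and 2 lower over 7000. Other values of these counts and shares, 43 in all, stayed within the limits set. The log2 ratio of Ccl5 was between 1.06 and 1.495 under 12 scalings and filters, that of Xcl1 between 1.64 and 1.97, of Tnf between -1.21 and -0.49, of Lta between -0.59 and -0.13, and of Il2 between -0.28 and 0.01. Without ribosomal and mitochondrial genes in the totals all ratios shifted by 0.26, and 19.5% of scored genes were higher and 11.7% lower, in place of 9.33% and 21.8%. Leaving out the 10 richest cells gave no ratio for Ccl3 and Il2, nor did G1 cells for Il2, as control then had 0 UMIs. Ccl3, Ifng and Il2 had under 20 UMIs in control, as did Il2 in TGR, and their intervals are wide.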
